A study of Homo sapiens with 36 samples.

Results

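The RNA sites of RBM10 and RBM22, both proteins of the splicing machinery, were compared window by window in HEK293T cells. The members are the 35712 distinct windows called enriched for either protein, out of 601384 distinct windows called for any of the 9 proteins of the series. They were chosen by joining the deposited RBM10 list (28544 windows in 5093 genes) and RBM22 list (8671 windows in 2617 genes) on the window identifier. This gave 1503 windows in both lists, 27041 in the RBM10 list only and 7168 in the RBM22 list only. No enrichment value was used beyond the authors' own call of a window. The labels name the proteins only, and the calling of them splice site proteins was checked against the feature classes below: 63.4% of the RBM10-only windows, 26.5% of the RBM22-only windows and 50.8% of the windows in both lists lay in a splice site flank, against 6.84% of the distinct windows of the other 7 lists.

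The series mapped protein-bound RNA by eCLIP, in which bound RNA is crosslinked to the protein, immunoprecipitated and sequenced beside an input library that skips the immunoprecipitation. HEK293T is a human embryonic kidney line, and the labels give no treatment for it. RBM10 and RBM22 each had 2 immunoprecipitated (IP) libraries and 2 input libraries, 8 of the 36 libraries of the series. Per the labels' protocols, some proteins were recovered through their own antibody and others through a V5 tag, and RBM10 and RBM22 are not assigned to either. Nothing in the labels tells if the 2 replicates came from separate cultures, so their spread may be technical.

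During splicing, the 5' splice site at the start of an intron is bound first by the U1 small nuclear RNA (snRNA) and then by U6, while the branch point near the 3' splice site pairs with U2. RBM22 is a core component of the activated spliceosome that contacts U6 and the intron near the 5' splice site. RBM10 is a regulator of alternative splicing, related to RBM5 and RBM6, that binds introns near splice sites and is known for promoting the skipping of exons such as one in NUMB.

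The lists hold no value per library, only reads summed over the replicates and the lower and higher log2 enrichment of the 2 replicates. No test between conditions or libraries was therefore made, and all intervals on shares are 95% Wilson intervals that cover counting of windows only. Intervals on medians and on differences also treat windows as independent and do not cover the spread between libraries. Neighbouring windows and windows of a gene are not independent. IP reads in listed windows came to 2122181 for RBM10 and 780368 for RBM22, input reads to 150249 and 184870. The depth of the libraries is unknown, so lack of enrichment and lack of coverage cannot be told apart for a window that a list leaves out.

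The sequences of a few windows, chosen by set and by splice site, are given as examples. They were taken from the RefSeq promoter table (GRCh38.p14), which covers only windows near gene starts. Among the windows covered there, those of highest lower-replicate log2 enrichment were taken in each set, by the RBM10 value for shared windows. Windows of a single chromosome were left out. The GC content of each stretch equalled the deposited value to within 0.01 percentage points. RBM10-only windows next to a 3' splice site are shown with the last 20 bases of the intron in capitals, where a pyrimidine-rich tract precedes the closing AG. They lie in ARID4B (chr1:235326969-235327059, minus strand), PTTG1IP (chr21:44865448-44865547, minus strand) and TBCD (chr17:82941299-82941398, plus strand).
ARID4B: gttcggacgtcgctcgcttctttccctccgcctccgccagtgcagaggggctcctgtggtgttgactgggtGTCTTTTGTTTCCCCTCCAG
PTTG1IP: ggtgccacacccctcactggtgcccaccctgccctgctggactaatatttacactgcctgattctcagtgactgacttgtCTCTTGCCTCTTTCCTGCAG
TBCD: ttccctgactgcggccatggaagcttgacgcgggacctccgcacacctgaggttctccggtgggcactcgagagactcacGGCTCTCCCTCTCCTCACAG

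RBM22-only windows next to a 5' splice site are shown with the first 6 bases of the intron in capitals. They lie in HIF1A (chr14:61695840-61695939, plus strand), GCA (chr2:162344276-162344337, plus strand) and FAIM (chr3:138608938-138609037, plus strand).
HIF1A: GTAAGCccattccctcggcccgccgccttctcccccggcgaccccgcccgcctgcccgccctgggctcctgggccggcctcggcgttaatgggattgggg
GCA: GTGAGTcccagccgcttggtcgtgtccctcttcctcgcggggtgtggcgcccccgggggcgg
FAIM: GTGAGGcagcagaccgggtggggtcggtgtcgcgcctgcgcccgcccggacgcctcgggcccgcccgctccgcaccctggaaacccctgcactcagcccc

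Windows in both lists are shown for the 5' splice site in CDC7 (chr1:91500949-91501048, plus strand), FAM53C (chr5:138338308-138338407, plus strand) and CCT5 (chr5:10250446-10250536, plus strand), with the first 6 bases in capitals. At the 3' splice site, with the last 20 bases in capitals, they lie in MRPL34 (chr19:17305731-17305830, plus strand) and AURKB (chr17:8210255-8210349, minus strand), and the AURKB window does not end in AG.
CDC7: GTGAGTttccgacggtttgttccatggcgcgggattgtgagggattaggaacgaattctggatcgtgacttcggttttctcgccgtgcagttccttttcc
FAM53C: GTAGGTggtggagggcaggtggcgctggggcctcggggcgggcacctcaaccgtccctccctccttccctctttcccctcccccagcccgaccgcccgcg
CCT5: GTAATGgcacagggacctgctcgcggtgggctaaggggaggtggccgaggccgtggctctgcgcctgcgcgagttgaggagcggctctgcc
MRPL34: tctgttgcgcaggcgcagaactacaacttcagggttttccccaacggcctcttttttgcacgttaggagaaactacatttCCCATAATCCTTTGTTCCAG
AURKB: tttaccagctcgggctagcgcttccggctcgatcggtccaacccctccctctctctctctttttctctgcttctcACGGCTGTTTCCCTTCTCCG

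Among the windows the table covers, the letters GT opened 14 of 14 RBM10-only, 35 of 35 RBM22-only and 8 of 8 shared windows next to 5' splice sites, and 147 of 152 such windows of other lists. GTAAG or GTGAG opened 7 of the 14, 21 of the 35 and 4 of the 8, and 69 of the 152. The letters AG closed 17 of 18 RBM10-only windows next to 3' splice sites, 1 of 2 shared ones and 31 of 39 of other lists. Pyrimidines made up a median of 70% of the last 20 bases both in the RBM10-only windows and in those of other lists. Anywhere in a promoter entry of 300 bases and on either strand, GTAAG occurs in 23.5% and GTGAG in 49.2% of the 35116 entries, so only the fixed position at the window's edge is described here. In these few windows the counts do not separate the lists.

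As raw shares, the windows of the 2 proteins overlapped less than their genes. The shares over the whole series, given below, were far lower for windows than for genes. A ratio to them has a lower ceiling for genes, so the 2 overlaps cannot be ranked that way. The 1503 shared windows made up 5.27% (5.01 to 5.53) of the RBM10 list and 17.3% (16.6 to 18.1) of the RBM22 list. Of all 601384 windows of the series, 4.75% were listed for RBM10 and 1.44% for RBM22. As background without these 2 lists, 1.16% of the distinct windows of the other 7 lists were listed for RBM22 and 2.21% for RBM10. Genes with a window of each protein numbered 2109, which is 41.4% of the RBM10 genes and 80.6% of the RBM22 genes. Of 11298 gene names with any window in the series, 45.1% had an RBM10 window, 23.2% an RBM22 window and 18.7% both. Within the 2109 genes, 854 (40.5%) held a window listed for both proteins and 1255 (59.5%) held separate windows only. These counts depend on the calling threshold. Keeping windows with a q-value of at most 0.05 left 275 shared windows and 825 shared genes, keeping those with a log2 enrichment of at least 2 left 669 shared windows, and cutting the RBM10 list to the length of the RBM22 list left 291.

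RBM10-only windows lay more often at 3' splice sites than RBM22-only ones, which lay more often at 5' splice sites. The authors' classes call the 100 nt of intron next to a splice site adjacent and the rest of its 500-nt flank proximal. Windows adjacent to 3' splice sites made up 33.5% (32.9 to 34.1) of the RBM10-only windows and 0.53% of the RBM22-only windows, 38 of 7168. Windows adjacent to 5' splice sites made up 5.69% of the RBM10-only and 18.4% (17.5 to 19.3) of the RBM22-only windows. The differences were 33.0 points (32.4 to 33.6) at the 3' site and 12.7 points (11.8 to 13.7) at the 5' site. The difference at the 5' site was 6.73 points when windows were weighted by IP reads and 20.7 points among windows with a log2 enrichment of at least 2. Of the distinct windows of the other 7 lists, 1.84% were adjacent to 3' and 0.917% to 5' splice sites. Both whole lists were above that share at 5' sites, with 1960 adjacent windows (6.87%) for RBM10 and 1741 (20.1%) for RBM22. At 3' sites the whole lists had 9141 adjacent windows (32.0%) for RBM10 and 119 (1.37%) for RBM22, the latter below the 1.84%. Of those 119, 81 were shared, so the RBM22-only share leaves them out.

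Windows in both lists were most often at 5' splice sites. Of the 1503, 28.0% (25.8 to 30.3) were adjacent to a 5' splice site and 5.39% to a 3' splice site. A further 18.8% were noncoding exon windows of protein-coding genes, against 9.77% of the RBM10-only and 4.24% of the RBM22-only windows. Of those 283 shared exon windows, 192 (67.8%) were also annotated as adjacent to a 5' splice site in another transcript, against 26.9% of the 2643 RBM10-only exon windows and 60.2% of the 304 RBM22-only ones. Counting any transcript, 52.3% of the shared windows touched the first 100 nt of an intron, against 12.8% of the RBM10-only and 25.01% of the RBM22-only windows. For the last 100 nt of an intron the shares counted this way were 20.7%, 45.7% and 3.84%, all above the shares by top class. Of the 283 shared exon windows, 101 (35.7%) were also adjacent to a 3' splice site in another transcript. By IP reads rather than by windows, the adjacent 5' class held 9.70% of the RBM10 reads in shared windows.

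**Figure D1:**
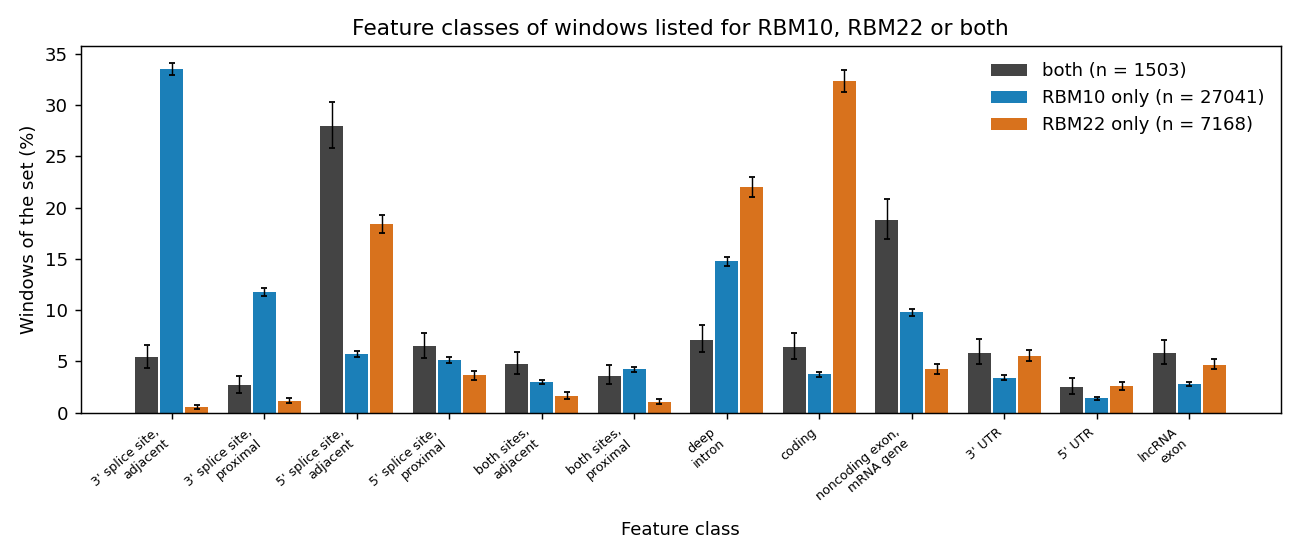
Share of windows (%, y axis) in each of the larger feature classes (x axis) for windows in both lists, in the RBM10 list only and in the RBM22 list only, with bars from 0 and 95% Wilson intervals. RBM10-only windows peak next to 3' splice sites at 33.5%, RBM22-only windows in coding sequence at 32.4%, and shared windows next to 5' splice sites at 28.0%.

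Sharing by class depended on which list it was read from. Of the 1960 RBM10 windows adjacent to a 5' splice site, 421 (21.5%, 19.7 to 23.4) were also RBM22 windows, against 12.5% of such windows of the other 7 lists. Read from the other side, the 421 were 24.2% (22.2 to 26.2) of the 1741 RBM22 windows there, against a background of 14.4% for RBM10. Next to 3' splice sites the counts were lopsided. The 81 shared windows were 0.886% of the 9141 RBM10 windows, near the 0.985% background of RBM22 there, and 68.1% (59.2 to 75.8) of the 119 RBM22 windows, against a background of 32.5% for RBM10. In coding sequence, 96 shared windows were 8.70% of 1104 RBM10 windows (background 1.99%) and 3.97% of 2417 RBM22 windows (background 0.855%). In deep introns, 107 shared windows were 2.61% of 4101 RBM10 windows (background 0.468%) and 6.36% of 1683 RBM22 windows (background 0.533%).

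**Figure D2:**
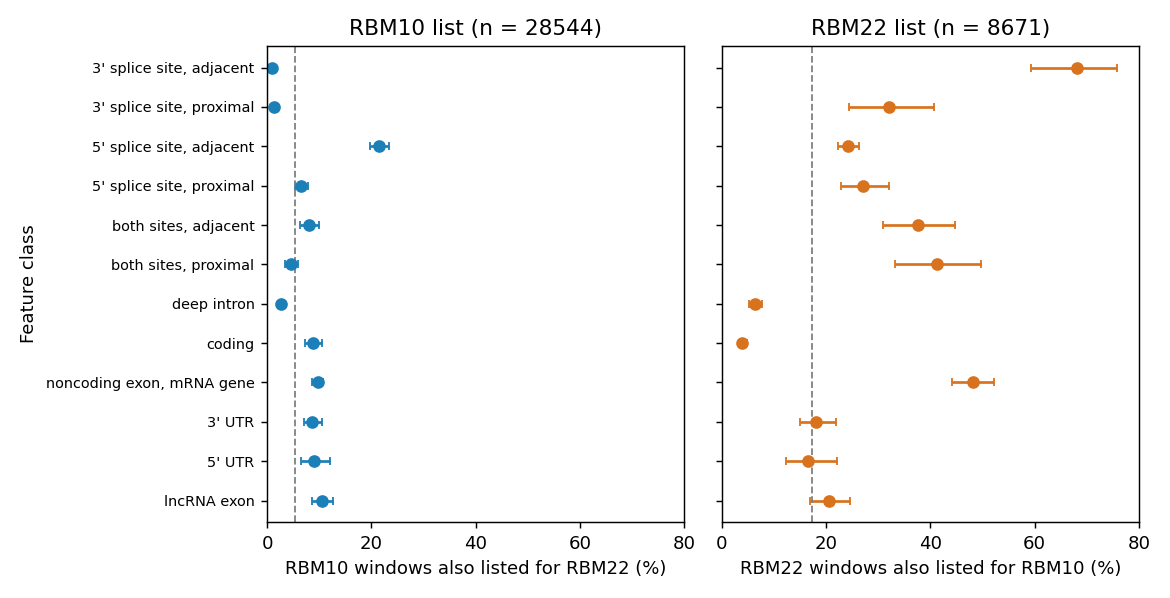
Share of the RBM10 windows (left, %) and of the RBM22 windows (right, %) of the larger feature classes that were also in the other list, with 95% Wilson intervals and a dashed line at the share over the whole list (5.27% and 17.3%). Among the classes drawn, the point for RBM22 windows adjacent to 3' splice sites lies farthest right, at 68.1%, while the RBM10 point of that class lies at 0.886%.

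Both lists thinned out within the 500-nt flanks, RBM22 more steeply at the 5' site. Of the RBM22 windows in 5' flanks, 82.1% lay in the first 100 nt and 2.04% in the fifth. For RBM10 at the 5' site these shares were 56.9% and 6.46%. In the 3' flank, 74.2% of 6065 RBM10 windows lay in the 100 nt next to the site and 2.08% in the farthest step, while the 133 RBM22 windows there had 47.4% in the nearest step. GRB2, a signalling adaptor, had no such slope, with 10.9% of its 3' flank windows in the nearest step and 26.8% in the farthest. RNPS1, a splicing factor of the exon junction complex, had a steep 3' profile like that of RBM10, with 75.8% in the nearest step. The nearest 3' step held 75.3% for CPSF6, 55.0% for MBNL2, 48.0% for EIF4B and 24.8% for CPSF5. A 3' slope was therefore not particular to RBM10 and RBM22.

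**Figure D3:**
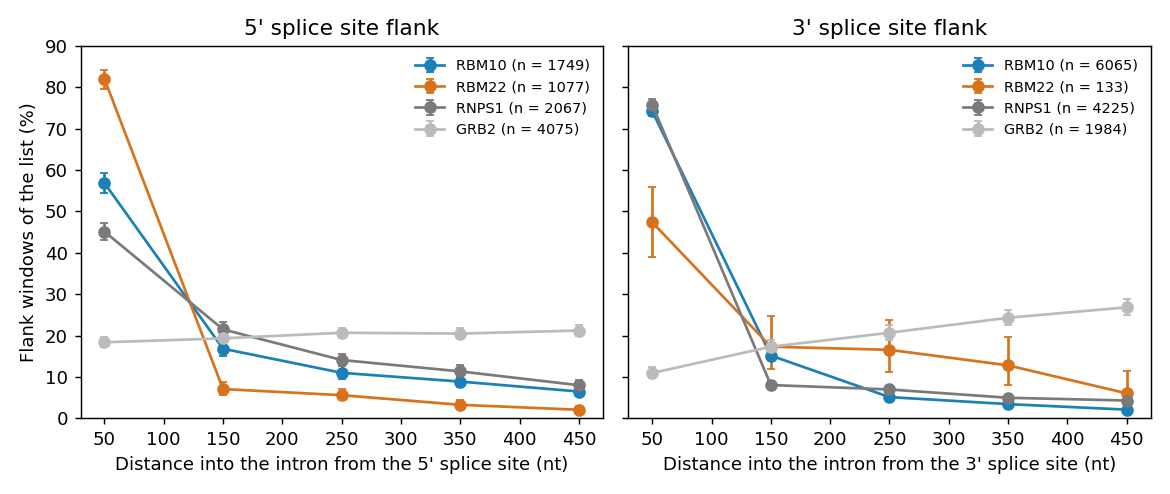
Share of each list's flank windows (%, y axis) in 100-nt steps into the intron from the 5' splice site (left) and from the 3' splice site (right), for RBM10, RBM22, RNPS1 and GRB2, with 95% Wilson intervals. RBM22 falls from 82.1% to 7.06% over the first steps of the 5' flank, RBM10 from 74.2% to 15.2% over those of the 3' flank.

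The strongest RBM10-only windows at 3' splice sites had no input reads. The rule took windows with a q-value of at most 0.05 and at least 20 IP reads, ranked by the lower of the 2 replicate values. DTNA, which encodes the cytoskeletal protein dystrobrevin alpha, had 278 IP and 0 input reads at chr18:34858185-34858284 and the authors' log2 enrichment of 7.36 and 8.33 in the replicates. ATP6V0A1, a subunit of the vacuolar proton pump, had 129 IP and 0 input reads at chr17:42477539-42477638, with values of 6.88 and 7.35. The other windows by this rule were in MTMR3, ATP8B2 and ATP2A2, the calcium pump of the endoplasmic reticulum, with lower values of 6.71 to 6.82.

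ATP6V0A1 also led the RBM22-only windows at 5' splice sites, at another intron. It held a window with 263 IP and 2 input reads at chr17:42507628-42507727 and values of 6.50 and 7.38, listed for no other protein. HIF1A, the oxygen-regulated transcription factor whose sequence is given above, had 122 IP and 0 input reads and values of 6.30 and 6.87. GTPBP4, a GTPase of ribosome assembly, had 130 IP and 0 input reads at chr10:988528-988627, with values of 6.19 and 7.10. BRI3BP and NUP155, a nuclear pore protein, completed the group with lower values of 6.07 and 6.06. GC content in these windows ran from 29% in NUP155 to 83% in BRI3BP.

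Shared splice site windows were called enriched for both proteins, so reads above input were a condition of the set. Over the 421 shared adjacent 5' windows, medians were 64 IP and 3 input reads for RBM10 and 53 and 5 for RBM22. Over the 81 at 3' sites they were 103 and 6 for RBM10 and 38 and 8 for RBM22. The windows named next were the highest ranked. In PUF60, which encodes a factor of 3' splice site recognition, a shared 5' window held 109 IP and 0 input reads for RBM10 (log2 5.82 and 6.40) and 71 IP and 1 input read for RBM22 (4.36 and 5.45). In GTPBP4, a shared 5' window at chr10:1010521-1010620, in another stretch of the gene than the RBM22-only one, held 31 IP and 0 input reads for RBM10 and 27 and 2 for RBM22. TLE3, SRF and TIMM50 were the other shared 5' windows by the rule. At 3' splice sites, BTN3A2, a butyrophilin, led with 285 IP and 0 input reads for RBM10 (6.88 and 8.52) and 91 and 0 for RBM22 (4.595 and 7.70), in a window listed for 4 of the 9 proteins. VARS2, PRRC2B, CHTOP and CAD followed, each in 3 or 4 lists.

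The strongest windows of all in both lists were not at annotated splice site edges. In PRKCA, which encodes protein kinase C alpha, a deep intron window at chr17:66757027-66757126 held 1514 IP and 2 input reads for RBM10 (log2 6.80 and 11.1) and 2349 IP and 0 input reads for RBM22 (9.80 and 12.4). ETV5, an ETS transcription factor, had 739 IP and 1 input read for RBM10 and 844 and 0 for RBM22 in a deep intron window. SPIN4 (coding), LGR5 (deep intron) and UBTD2 (5' proximal) completed the group. Each of these windows was listed for 4 of the 9 proteins.

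Many introns carried RBM22 at the 5' end and RBM10 at the 3' end, a share also seen with some other proteins at the 5' end. There were 560 such introns in 452 genes, so 32.2% (30.01 to 34.4) of the 1741 adjacent 5' windows of RBM22 had an RBM10 window at the other end of the intron. The share was 32.6% for RNPS1 and 29.2% for CPSF6, a cleavage factor subunit. It was 17.7% for GRB2, 13.7% for CPSF5 and 52.1% for the 5' windows of RBM10 itself. In the opposite order, 34 introns had RBM10 at the 5' end and RBM22 at the 3' end. RBM22 had only 119 adjacent 3' windows, against 9141 for RBM10, so these counts cannot be set against each other directly. Of the 560, RBM10 also had the 5' window in 229 (40.9%), RBM22 also had the 3' window in 20 (3.57%), and 322 (57.5%) held separate windows only. When both windows had to have q-values of 0.05 or less, 121 such introns were left.

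By the lower of the 2 ranks within lists, an intron of CPSF4, which encodes a polyadenylation factor, came first. It spanned 3281 nt, with 41 IP and 0 input reads for RBM22 at chr7:99444840-99444939 (log2 5.04 and 5.06) and 189 IP and 0 input reads for RBM10 at chr7:99448021-99448120 (6.16 and 7.44). PSMA5, a proteasome subunit, had 39 IP and 4 input reads for RBM22 and 569 and 7 for RBM10 at the ends of an intron of 7837 nt. QARS1, the glutaminyl-tRNA synthetase, had the shortest of the 5 leading introns, 192 nt, with 64 IP and 3 input reads for RBM22 and 160 and 1 for RBM10. FANCD2, a DNA repair protein, and ANKLE2 were the others. Over all 560 the intron length ranged from 137 to 93012 nt with a median of 1182 nt. PRRC2B had 5 such introns, and AP3D1, CBSL, DNMT1 and HUWE1 had 4 each, with CBSL a near-identical copy of CBS between which reads could be divided.

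Coding and deep intron windows of RBM22 were mostly windows of CPSF6 too. Coding sequence was the largest class of the RBM22-only windows at 32.4%, against 3.73% of the RBM10-only windows. Of those 2321 coding windows, 97.8% were also CPSF6 windows, against 75.9% of the 1008 RBM10-only coding windows and 60.2% of the coding windows of the other 7 lists. Of the 1576 RBM22-only deep intron windows, 84.4% were CPSF6 windows, against 11.1% of the 3994 RBM10-only ones and 11.4% over the other 7 lists. The CPSF6 list is long, with 155533 windows. RNPS1, with 152730 windows, had 85.7% of the RBM22-only and 85.4% of the RBM10-only coding windows, so the coding overlap was not particular to CPSF6. In deep introns the RNPS1 shares were 25.4% and 8.54%.

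Windows that none of the other 7 proteins had were unevenly spread over the RBM22 classes and more evenly over those of RBM10. Of the RBM22-only windows, 68.0% of the 1320 adjacent 5' windows were in none of the other 7 lists, against 11.3% of the deep intron windows and 1.25% of the coding windows. Of the RBM10-only windows, it was 66.0% of the adjacent 5' windows, 62.2% of the 9060 adjacent 3' windows, 59.8% of the deep intron windows and 7.94% of the coding windows, and 56.6% over all classes. Over the series, the windows outside those 7 lists were 28.0% of the adjacent 5' windows and 34.4% of the adjacent 3' windows. They were 0.81% of the deep intron windows and 0.091% of the coding windows. Such windows are by construction RBM10 or RBM22 windows, so these shares are no independent background. Of the shared windows, 41.6% at 5' splice sites and 7.41% of 81 at 3' splice sites were in none of the other 7 lists, and 81.5% of the latter 81 were CPSF6 windows.

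At 5' splice sites RBM22-only windows were richer in GC than RBM10-only ones. The median was 65% (quartiles 55 to 73) in RBM22-only adjacent 5' windows, 54% (47 to 59.9) in RBM10-only ones and 56.8% (49 to 66) in shared ones, and the quartile ranges overlapped. The difference of medians between RBM22-only and RBM10-only windows was 11 points (10.3 to 12.4). Differences of similar size were seen in the proximal 5' flank, with medians of 63% and 53%, and in noncoding exons of protein-coding genes, with 57.6% and 47.6%. Over other lists the median at adjacent 5' sites ranged from 33% for CPSF5 to 73% for MBNL2. In deep introns the order was turned: 42.4% in RBM22-only windows, 51.5% in RBM10-only windows and 51.0% in shared ones. At 3' splice sites the median was 47% in RBM10-only windows, 55% in the 81 shared windows and 57% (95% interval 51.3 to 67.8) in the 38 RBM22-only windows.

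Distance to the gene start differed between the sets too. Of the adjacent 5' windows in genes matched to RefSeq, 32.4% (29.8 to 35.0) of the RBM22-only, 10.1% (8.71 to 11.8) of the RBM10-only and 18.5% of the shared windows lay within 1 kb of the gene's start, against 28.0% over the other 7 lists. Median GC was 74% within and 61% beyond that distance in RBM22-only windows, and 67% and 53% in RBM10-only windows. RBM22-only windows thus had the higher median in both distance groups. The part of either property in the other was not tested.

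**Figure D4:**
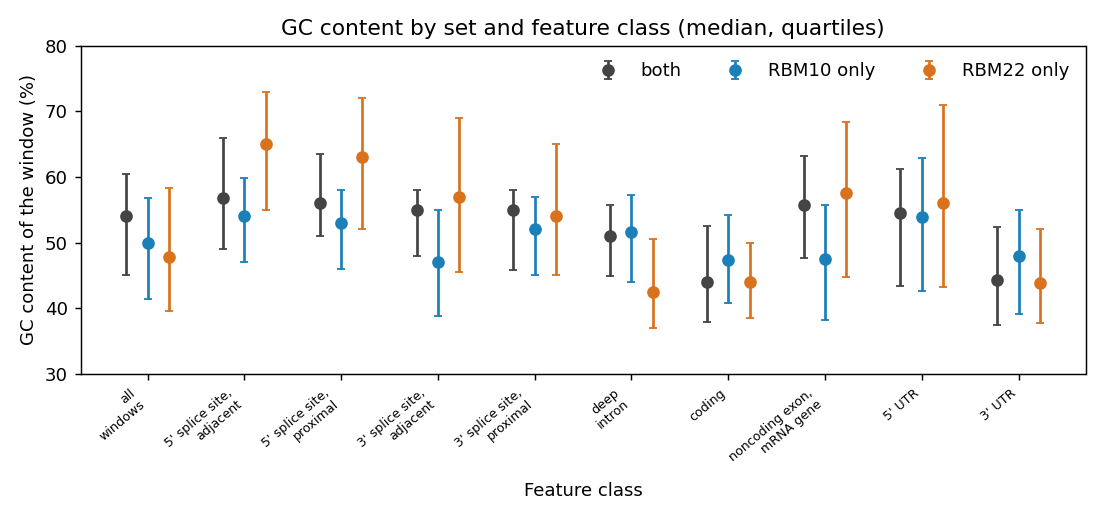
GC content of the windows (%, y axis) by feature class (x axis), with points at medians and bars over quartiles, for windows in both lists, RBM10 only and RBM22 only. RBM22-only windows are highest next to 5' splice sites (65% against 54% for RBM10 only) and lowest in deep introns (42.4% against 51.5%).

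Within each list, shared windows held more reads and no higher enrichment. In the RBM10 list the median was 79 IP and 5 input reads in shared windows and 44 and 2 in the rest, and 4.99% against 15.8% of windows had no input read. In the RBM22 list the medians were 48 IP and 8 input reads against 34 and 6. The median lower log2 enrichment was 2.50 in shared and 2.79 in RBM10-only windows, a difference of -0.28 (-0.33 to -0.20). In the RBM22 list it was 2.06 and 2.13. The log2 values of the 2 lists have no common scale and were not set against each other. The difference in the RBM10 list widened to -0.83 with the higher replicate value and narrowed to -0.14 among windows with an input read.

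Windows in spliceosomal snRNA genes were few but deep, in input as well as in IP reads. They numbered 41 for RBM10 with 7.98% of its IP reads in listed windows and 31 for RBM22 with 9.64%. Their shares of the input reads in listed windows were larger, with 22081 of 150249 for RBM10 and 29560 of 184870 for RBM22. In the RBM22 list, 21 U6 windows had a median lower log2 enrichment of 3.86 and 18 of them lay above the list's median, while 6 U2 windows had a median of 1.56 and 1 of them lay above it. In the RBM10 list, 14 U2 windows had a median of 3.32 and 22 U6 windows 3.003, with 9 and 14 of them above the list's median of 2.77. These medians give each window the same weight. The U2 windows with most RBM10 IP reads lay below the list's median, at 2.55 in RNU2-2P (55238 reads) and 2.33 in RNU2-1 (36439 reads). The next deepest, with 27035 reads, lay above it at 3.08. The deeper window of RNU6-7, a U6 copy, held 17872 IP and 1223 input reads for RBM10 (2.97 and 3.87) and 14023 and 1652 for RBM22 (3.02 and 4.04). Its other window held 751 IP and 50 input reads for RBM10 (3.13 and 3.20) and 280 and 60 for RBM22 (1.51 and 2.94). U2 and U6 genes have many near-identical copies and pseudogenes, so how reads were divided among their windows is uncertain.

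Genes differed widely in which protein had windows there. CSNK1E, a casein kinase, held the most shared windows, 17, among 61 RBM10 and 30 RBM22 windows. PTBP1, the polypyrimidine tract binding protein, held 16 among 50 and 20, CBS 14, MTA1 12 and HOXC6 11. CBS and CBSL are near-identical, so the CBS counts are uncertain. Among genes with no RBM22 window, NSUN6, an RNA methyltransferase, had 190 RBM10 windows and MAD1L1 107, few of them adjacent to 3' splice sites (1 and 4). ARHGEF10 had 61, and PHGDH and RILPL1 had 50 each. PHGDH encodes the first enzyme of serine synthesis, and 10 of its windows were next to 3' splice sites.

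In 4 of the 5 genes with most RBM22 windows and no RBM10 window, coding windows prevailed. All 18 windows of QSER1 and all 17 of TCF20 were coding, as were 16 of 17 in ALMS1 and 15 of 17 in RBM15. KANTR, a noncoding RNA gene, had 19 windows and none of them coding. Among genes chosen after their values were seen, SPEN had 118 RBM22 and 6 RBM10 windows, with 84 of the RBM22 windows coding. HUWE1, a ubiquitin ligase, had 110 RBM10 windows, 44 of them adjacent to 3' splice sites, and 9 RBM22 windows with none there. NUMB had 2 RBM10 windows, both adjacent to 3' splice sites, and no RBM22 window.

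**Figure D5:**
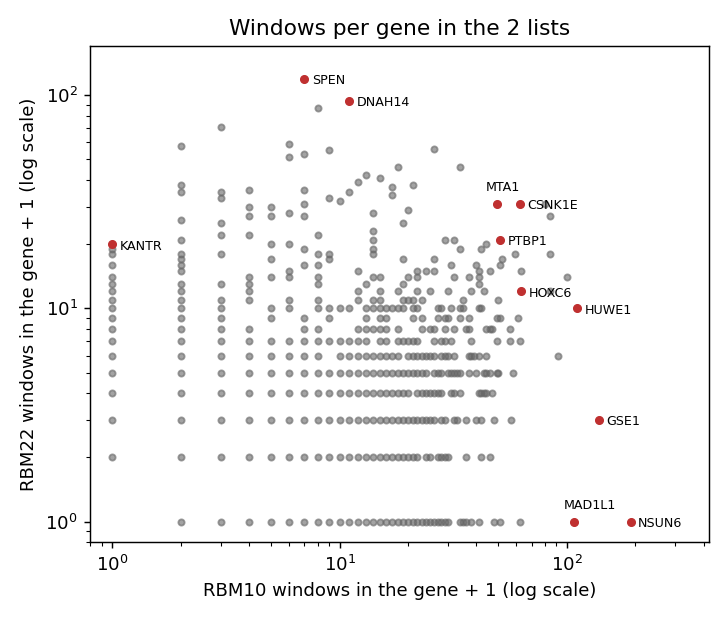
RBM10 windows (x axis) and RBM22 windows (y axis) per gene, each plus 1 on a log scale, with a point at each pair of counts that at least 1 gene has and selected genes in red. NSUN6 (190 and 0), HUWE1 (110 and 9) and SPEN (6 and 118) lie far apart along the axes, and CSNK1E (61 and 30) lies between them.

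Lists of spliceosome genes differed in how many members had windows. Of 18 genes for 3' splice site recognition, 16 had an RBM10 window, 10 an RBM22 window and 10 both, against 45.1%, 23.2% and 18.7% of all gene names with a window in the series. U2AF2, the large subunit of the factor that binds the polypyrimidine tract, had 25 RBM10 and 14 RBM22 windows, 6 of them shared. Of 21 genes for 5' splice site recognition, 14, 10 and 10 had such windows. SNRNP70, a U1 protein, had 40 RBM10 and 12 RBM22 windows, 8 of them shared. Of 28 genes for proteins around RBM22 in the spliceosome, 14 (50%) had an RBM10 window, near the share over all genes, and 4 (14.3%) had an RBM22 window, all 4 of them with windows of both. PRPF8, the protein at the spliceosome's core, had 49 RBM10 and 4 RBM22 windows.

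Among 10 relatives and reported splicing targets of RBM10, 8 had an RBM10 window and 5 had windows of both proteins, against 45.1% and 18.7% of all gene names. These targets were listed because RBM10 is known to act on them. The transcript of RBM10 itself had 41 RBM10 windows, 6 of them adjacent to 3' splice sites, and 3 RBM22 windows. RBM5, its closest relative, had 38 and 5, and RBM6 had 16 and 4. TNRC6A, a protein of microRNA silencing, was the member with more RBM22 than RBM10 windows, 17 against 13, and 14 of the 17 were coding. The transcript of RBM22 had 2 RBM10 windows, both adjacent to 3' splice sites, and no RBM22 window.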

How the data were processed

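eCLIP libraries of RBM10 and RBM22 from HEK293T cells (2 IP and 2 input each) were grouped by the labels. The authors deposited, per protein, a list of windows of at most 100 nt with whole-number IP and input read counts summed over replicates. Per the file headers, they also deposited log2 odds ratios (the minimum, mean and maximum of 2 replicates), p-values and q-values (the largest q-value was 0.1998 in either list), and the GC fraction, printed here as a percentage. Coordinates are in hg38, per the submitters' processing notes. For the aligner, window caller, annotation version and the model behind the log2 values, the entry is "not given in the sources used here". Enrichment was used only to describe or rank windows within a list.

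Lists were joined on the window identifier, by strand-specific windows. Introns were rebuilt from consecutive feature identifiers, and distances into flanks from window numbers counted from the nearer site (3' flanks on the minus strand and 5' flanks on the plus strand only, without short introns whose flanks overlap). Shares carry Wilson intervals and differences of shares Newcombe intervals, and medians order-statistic intervals, all at 95%. The interval of a difference of medians combines the intervals of the 2 medians. Distances to gene starts and sequences came from the RefSeq tables for GRCh38.p14. The code was tested on simulated data. Python 3.11.15, numpy 2.4.6, pandas 2.3.3, scipy 1.17.1 and matplotlib 3.10.9 were used.

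Named windows were the 5 of each set with the highest lower-replicate log2 enrichment (for shared windows the lower of the 2 ranks within lists), 1 per gene, with a q-value of at most 0.05 and at least 20 IP reads. Named genes were the 5 with most shared windows and the 5 with most windows of 1 protein and none of the other. The members, gene lists and rules were chosen with earlier results of these data known. Distances to gene starts, the pairing of introns with other lists, the snRNA families, the shares by class over other lists and the sequences were added after the data were seen. Alternatives tried were stricter q-value, enrichment and read minimums, equal list lengths, merged windows, weighting by reads, and leaving out windows of many lists.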

Additional observations from a re-analysis of the deposited data

How the results depend on the processing

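Of 54 values under alternative settings, 23 stayed within 1.5 times of the count or inside the interval of the main value, and 31 moved. No difference or ratio reversed direction, while counts and single shares had no direction to reverse. At a q-value of at most 0.05, 275 windows, 825 genes and 121 introns were shared or paired, and the differences were 43.0 points at 3' and 16.7 points at 5' splice sites. With a log2 enrichment of at least 2, there were 669 shared windows, differences of 35.8 and 20.7 points, and 40.4% of shared windows at 5' sites. With the RBM10 list cut to equal length, these were 291 windows, 42.0 and 14.2 points and 35.4%, and the GC difference was 9 points. At least 20 IP reads gave 14.04 points at 5' sites. Leaving out windows of 5 or more lists gave 13.9 points and 33.1%. Genes of both lists gave 28.9 points at 3' sites. Short introns added gave 34.3 points at 3' sites, 11.3 points at 5' sites and 32.7%. Merged windows gave 42.8 points, 16.2 points and 32.3%. Weighting by IP reads gave 30.9 points, 6.73 points and 9.70%. Chosen after seeing the data, the enrichment difference in the RBM10 list was -0.83 with the higher replicate and -0.14 with an input read, and at a q-value of at most 0.05 the share in none of the other 7 lists was 58.0% for RBM10-only 3' windows and 60.3% for RBM22-only 5' windows. The equal-length setting keeps the RBM10 windows of highest enrichment, and fewer windows enter the stricter settings.

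No paired analysis was possible because the lists hold reads summed over the replicates and no value per library. For the same reason leaving out a replicate could not be run. Library depth is unknown, so absence from a list is not absence of binding.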
